A study of Homo sapiens with 8 samples.

Results

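Genes of antigen presentation by MHC class I were followed across 4 treatments of the human promyelocytic leukaemia line HL-60. The set holds 9 genes, taken by name as the rows of the deposited table that carry the symbols HLA-B, HLA-C, HLA-E, HLA-F, B2M, TAP1, TAP2, TAPBP and NLRC5, out of 60240 genes in all. It does not cover every class I gene. Of the 9 genes, 8 had a mean of at least 10 normalised counts over the 8 libraries and were tested among 17534 such genes, and HLA-F did not. The groups were decitabine with RG3039 (the combination), decitabine alone, RG3039 alone and the solvent DMSO, with 2 libraries each. All groups were wild-type HL-60, so every value comes from a single cell line. Decitabine, a deoxycytidine analogue that inhibits DNA methyltransferases, was given at 100 nM on each of 3 days, day 0 to day 2. RG3039, an inhibitor of the decapping scavenger enzyme DcpS, was given at 2 µM on day 0. RNA was taken at 72 h and measured by 3′ tag sequencing. The labels speak of duplicate wells and of no separate cultures, so p-values measure only the spread between these wells, which may be technical.

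MHC class I molecules carry peptides from inside the cell to its surface, where T cells and NK cells read them. A heavy chain (HLA-B, HLA-C, HLA-E or HLA-F here) pairs with the light chain β2-microglobulin, encoded by B2M. The proteasome and cytosolic peptidases make the peptides, the TAP1 and TAP2 proteins together pump them into the endoplasmic reticulum, and tapasin, encoded by TAPBP, holds the empty heavy chain at that pump. NLRC5 is a transcriptional activator that works at class I promoters and also at B2M and TAP1. Interferons raise most of these genes, and class I expression on leukaemia cells bears on their recognition by T cells.

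The libraries held an estimated 20711813 to 40948112 reads, and their normalised counts summed to 27878621 to 32309929. The 6 promyelocyte genes used to check the label (MPO, ELANE, AZU1, PRTN3, CTSG and CD33) were present in every library. Their summed level was 84211 and 94241 with the combination, 155613 and 195063 with decitabine, 101820 and 116936 with RG3039, against 158135 and 194716 in DMSO. Most of this sum is MPO. With the combination 3 of the 6 (CTSG, MPO and PRTN3) were called lower, where 12.7% of all tested genes were. RG3039 alone also called 3 of the 6 lower, where 3.59% of all tested genes were. Decitabine alone called 1 higher and 0 lower (1.74% and 0.405% of all tested genes). The combination against RG3039 called 0 of the 6 (2.28% of all tested genes). Correlations across genes were 0.952 to 0.957 between the libraries of a group and 0.890 to 0.954 between groups.

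The promoter windows of 5 members are shown so that the letters of B2M and TAP1, of TAP2 and of the similar pair HLA-B and HLA-C can be set side by side. They are 300 bases each, 250 before and 50 after the annotated start, read 5′ to 3′ on the gene's own strand, from RefSeq on GRCh38.p14. The windows lie at chr15:44711267-44711566 (plus strand) for B2M and, all on the minus strand, at chr6:32853655-32853954 for TAP1, chr6:32838690-32838989 for TAP2, chr6:31357130-31357429 for HLA-B and chr6:31272043-31272342 for HLA-C. Capitals mark the matches to the searched motifs.
B2M: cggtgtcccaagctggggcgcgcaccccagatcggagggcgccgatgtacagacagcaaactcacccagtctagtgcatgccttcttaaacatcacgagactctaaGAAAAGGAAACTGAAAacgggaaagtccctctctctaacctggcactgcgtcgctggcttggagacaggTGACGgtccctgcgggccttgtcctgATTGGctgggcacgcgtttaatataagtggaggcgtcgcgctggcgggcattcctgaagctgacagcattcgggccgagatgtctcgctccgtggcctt
TAP1: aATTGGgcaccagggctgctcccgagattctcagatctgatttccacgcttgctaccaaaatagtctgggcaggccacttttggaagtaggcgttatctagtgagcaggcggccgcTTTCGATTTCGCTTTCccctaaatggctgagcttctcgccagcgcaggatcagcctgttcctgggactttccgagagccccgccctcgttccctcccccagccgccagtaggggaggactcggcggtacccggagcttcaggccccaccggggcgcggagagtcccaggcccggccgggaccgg
TAP2: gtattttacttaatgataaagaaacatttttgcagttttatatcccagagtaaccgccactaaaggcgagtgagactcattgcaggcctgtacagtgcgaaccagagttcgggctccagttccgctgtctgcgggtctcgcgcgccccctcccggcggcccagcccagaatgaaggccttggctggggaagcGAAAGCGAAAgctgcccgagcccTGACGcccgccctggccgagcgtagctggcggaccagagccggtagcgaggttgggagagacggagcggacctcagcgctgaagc
HLA-B: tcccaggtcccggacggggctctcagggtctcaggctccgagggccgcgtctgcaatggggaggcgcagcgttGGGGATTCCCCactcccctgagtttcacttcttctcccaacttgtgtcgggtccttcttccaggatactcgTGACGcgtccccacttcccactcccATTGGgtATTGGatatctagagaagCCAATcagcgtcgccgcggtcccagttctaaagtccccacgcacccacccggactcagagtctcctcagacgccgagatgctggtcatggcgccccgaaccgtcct
HLA-C: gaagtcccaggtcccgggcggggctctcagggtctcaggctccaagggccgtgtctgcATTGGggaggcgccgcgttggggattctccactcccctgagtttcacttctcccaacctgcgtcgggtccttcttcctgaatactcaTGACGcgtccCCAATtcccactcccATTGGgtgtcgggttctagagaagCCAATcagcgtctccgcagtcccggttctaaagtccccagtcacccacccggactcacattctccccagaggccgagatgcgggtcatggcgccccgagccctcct

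Of the 9 members, 7 had a RefSeq window. The motifs were searched on both strands, and positions count from the start, with no position 0. The interferon-stimulated response element core (GAAA, any 2 bases, GAAA) stood in 5 of the 7 windows, and in 3.57% of the 35116 promoters of the table. B2M had overlapping matches from -144 and -138, TAP1 from -134 and -128 and TAPBP from -20 and -14, while TAP2 had a match from -58 and HLA-F from -156. The windows of HLA-B and HLA-C did not hold these exact letters. The enhancer A letters (GGGGA, any base, TCCCC) stood at -177 in HLA-B and in 0.0740% of all promoters. The HLA-C window did not hold them, although the windows of HLA-B and HLA-C were identical at 269 of 304 aligned positions (88.5%). The short site TGACG, part of the cyclic AMP response element, was found at -106 in HLA-B, -105 in HLA-C, -75 in B2M and -35 in TAP2, and in 24.6% of all promoters. The inverted CCAAT box ATTGG was found in the windows of HLA-B, HLA-C, HLA-F, B2M and TAP1, and in 34.6% of all promoters. Neither TTCNNNGAA, the gamma-interferon activation site (7.66% of all promoters), nor the full element TGACGTCA (1.85%), in which TGACG is contained, matched in any of the 7 windows. A match is a description of the letters and not evidence of binding. The search allowed no mismatch outside the free bases and misses variants of a motif. A missing match, as in HLA-B and HLA-C, therefore does not show that the element is absent.

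**Figure D1:**
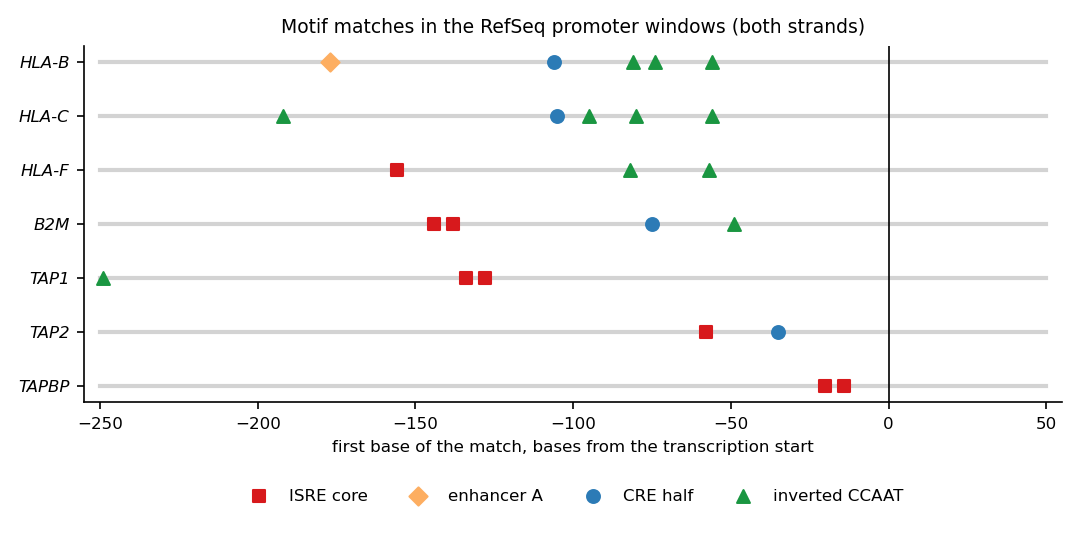
Motif matches in the 7 RefSeq promoter windows, by the first base of each match in bases from the transcription start (horizontal axis) and by gene (vertical axis). The matches to the interferon-stimulated response element core lie between -156 and -128 in HLA-F, B2M and TAP1, and between -58 and -14 in TAP2 and TAPBP.

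Values below are normalised counts. Changes are log2 fold changes ± their standard error on the scale of log2(normalised count + 1), from 1 limma model over all 8 libraries, with p-values adjusted by Benjamini-Hochberg over the 17534 tested genes. A gene is called when that adjusted p is under 0.05, and intervals are 95% intervals from the same model. In these bulk samples fewer cells that express a gene and less of its RNA per cell cannot be told apart.

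With the combination, 5 of the 8 tested members were called against DMSO. HLA-E, B2M, TAP1 and NLRC5 rose and TAP2 fell. Over all tested genes 24.1% were called in this comparison, 11.4% higher and 12.7% lower. The median change of the 8 members was 0.56, against 0.04 over all tested genes. With RG3039 alone 1 of 8 was called, TAP1, which rose, where 8.12% of all genes were called, 4.53% higher and 3.59% lower. The median of the members was 0.24, against -0.0025 over all tested genes. With decitabine alone 0 of 8 was called, where 2.14% of all genes were called, 1.74% higher and 0.405% lower, and the median was 0.21, against 0.01. At an unadjusted p under 0.05, B2M and TAP1 (2 of 8) passed with decitabine, among 3130 of all tested genes. The 3 comparisons share the DMSO libraries.

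**Figure D2:**
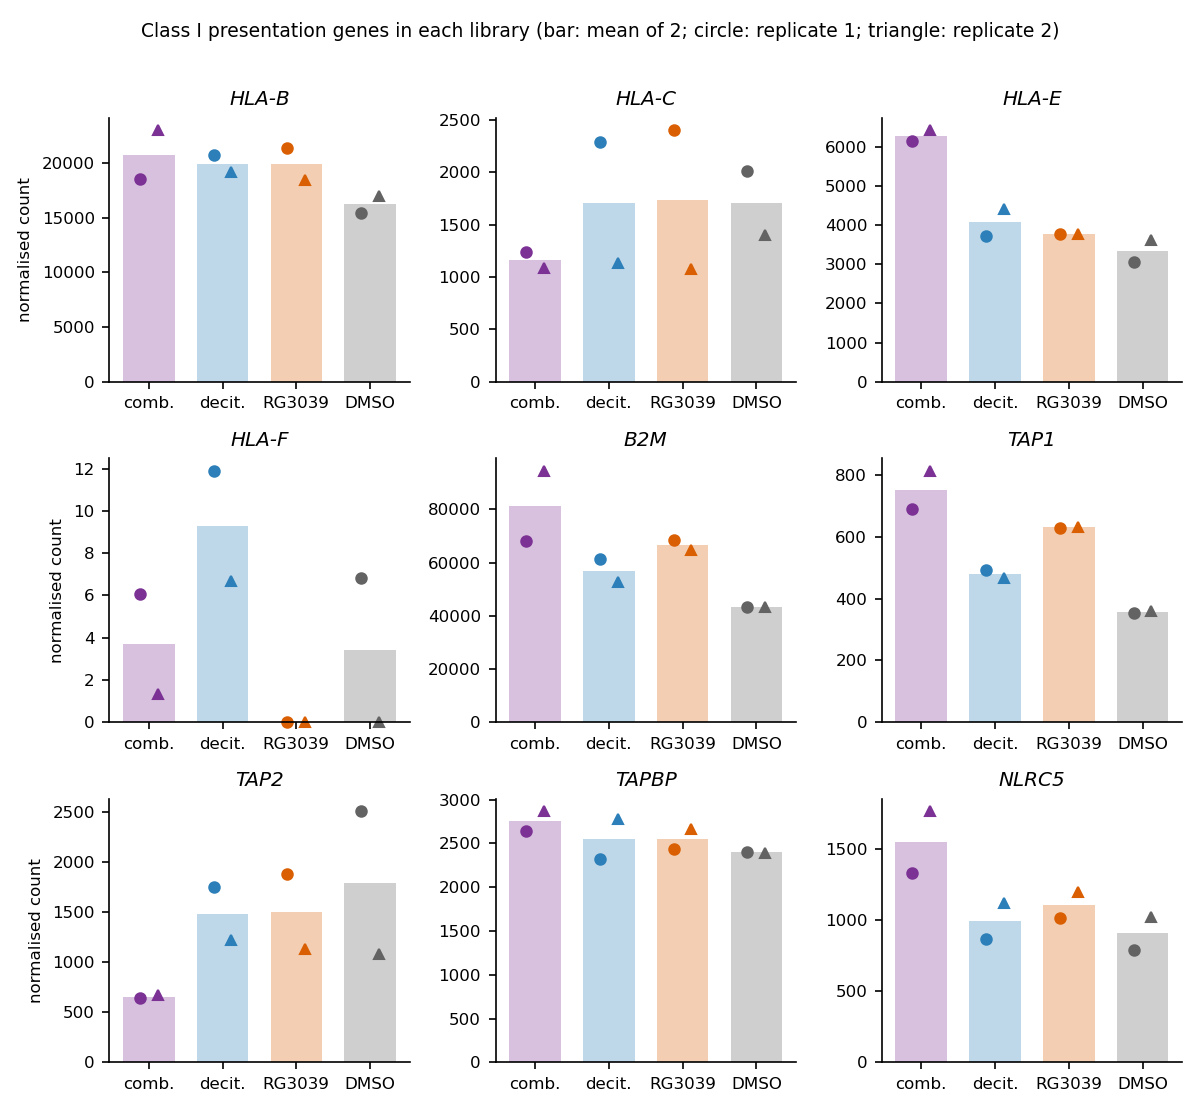
Normalised counts of the 9 genes in each of the 8 libraries, by treatment (bars, mean of 2 libraries; circles, replicate 1; triangles, replicate 2). For HLA-E the combination libraries, at 6163 and 6433, lie above all others, and for TAP2, at 639 and 673, below all others.

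Among the tested heavy chain genes, only HLA-E was called. HLA-E encodes a heavy chain that mainly presents leader peptides of other class I chains to an inhibitory receptor of NK cells. It lies on chromosome 6 at 30489467 to 30494205 on GRCh38 (ENSG00000204592.9). It stood at 6163 and 6433 with the combination, 3738 and 4418 with decitabine, 3768 and 3777 with RG3039, against 3065 and 3625 in DMSO. Both combination libraries were above all 6 others, and decitabine and RG3039 overlapped. HLA-E rose 1.89-fold in combination-treated cells relative to DMSO (0.92 ± 0.15, adjusted p = 0.00205), and kept this call under all 18 alternatives, with adjusted p from 0.000408 to 0.0265. It was also called higher with the combination than with decitabine (0.63 ± 0.15, adjusted p = 0.0315) and than with RG3039 (0.74 ± 0.15, adjusted p = 0.0361). The call over decitabine did not outlast the loss of a library from any of the 3 drug groups: leaving out replicate 1 or 2 gave an adjusted p of 0.166 or 0.0533 for decitabine, 0.0554 or 0.0558 for RG3039, and 0.149 or 0.170 for the combination. The call over RG3039 likewise ended when replicate 1 or 2 of RG3039 (adjusted p of 0.215 or 0.111), replicate 1 or 2 of the combination (0.221 or 0.192) or replicate 2 of decitabine (0.0506) was left out. With each drug alone against DMSO the changes were smaller and not called, at 0.29 ± 0.15 for decitabine (interval -0.04 to 0.61) and 0.18 ± 0.15 for RG3039 (interval -0.15 to 0.51).

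HLA-B, a classical heavy chain gene of chromosome 6 (ENSG00000234745.11), was the most abundant heavy chain row of the 4. It stood at 18589 and 23023 with the combination, 20765 and 19163 with decitabine, 21421 and 18474 with RG3039, against 15489 and 16984 in DMSO. Every treated library was above both DMSO libraries, and the 3 treatments overlapped each other. No comparison was called, except that the combination against DMSO reached adjusted p = 0.0471 with quantile normalisation. Against DMSO the changes were 0.35 ± 0.15 with the combination (interval 0.02 to 0.68, adjusted p = 0.119), 0.30 ± 0.15 with decitabine (adjusted p = 0.326) and 0.29 ± 0.15 with RG3039 (adjusted p = 0.275). Between the treatments the differences were within 0.06 of 0, with intervals from -0.28 to 0.39 for the combination against decitabine and against RG3039.

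HLA-C, the other classical chain of the set and also a ligand of NK cell receptors (ENSG00000204525.16), varied mostly between replicates. It stood at 1236 and 1084 with the combination, 2287 and 1133 with decitabine, 2400 and 1077 with RG3039, against 2015 and 1402 in DMSO. Replicate 1 was above replicate 2 in all 4 groups, by up to 1.16 on the log2 scale in RG3039, and this held for 7.67% of all tested genes. Both combination libraries were below both DMSO libraries and overlapped the single drugs. The change with the combination was -0.54 ± 0.40 (interval -1.44 to 0.36, adjusted p = 0.376). In GENCODE 29 the HLA-B gene model, at 31269491 to 31357188, runs across most of that of HLA-C, at 31268749 to 31272130 on the same strand. Reads of the near-identical HLA genes may also have been split between them, so the separate levels of HLA-B and HLA-C are uncertain.

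HLA-F, a non-classical heavy chain gene (ENSG00000204642.14), was close to the limit of detection. It stood at 6.08 and 1.31 with the combination, 11.9 and 6.70 with decitabine, 0 and 0 with RG3039, against 6.83 and 0 in DMSO. By the estimate of what 1 read is worth, no library held more than about 9.03 reads of HLA-F (DMSO replicate 1), and the highest value, in decitabine replicate 1, is worth about 8.83. HLA-F is listed at 0 in 3 libraries, which can also be a failed estimate. It was not tested. Of the other non-classical genes HLA-G was listed at 0 in all 8 libraries, and the 5 class I pseudogenes looked at (HLA-H, HLA-J, HLA-K, HLA-L and HLA-V) reached at most 17.4, so none of them was tested.

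B2M encodes the light chain with which the class I heavy chains pair (ENSG00000166710.20, chromosome 15, 44711487 to 44718877). It stood at 68243 and 94555 with the combination, 61336 and 52535 with decitabine, 68556 and 64749 with RG3039, against 43222 and 43195 in DMSO. All 6 treated libraries were above both DMSO libraries, and RG3039 was above decitabine without overlap. B2M rose 1.86-fold with the combination (0.89 ± 0.17, adjusted p = 0.00479). Without combination replicate 2, the highest library, the adjusted p was 0.0532. With RG3039 alone the change was 0.62 ± 0.17 and narrowly missed the threshold (interval 0.25 to 1.00, adjusted p = 0.0529). With decitabine alone it was 0.39 ± 0.17 (interval 0.02 to 0.77, adjusted p = 0.262). The combination was not called against decitabine (0.50 ± 0.17, adjusted p = 0.107) or against RG3039 (0.27 ± 0.17, adjusted p = 0.453), nor was decitabine against RG3039 (-0.23 ± 0.17, adjusted p = 0.526).

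TAP1 and TAP2 encode the partner chains of the peptide transporter, and their listed counts went opposite ways with the combination. TAP1 (ENSG00000168394.11, chromosome 6, 32845209 to 32853978) stood at 689.9 and 814 with the combination, 491 and 465 with decitabine, 629.5 and 631 with RG3039, against 355 and 358 in DMSO. The 4 groups followed each other without overlap, with the combination highest, then RG3039, then decitabine, then DMSO. TAP1 rose 2.10-fold with the combination (1.07 ± 0.18, adjusted p = 0.00293), a call kept under all 18 alternatives. It rose 1.77-fold with RG3039 alone (0.82 ± 0.18, adjusted p = 0.0257). The call with RG3039 ended when replicate 1 or 2 of DMSO (adjusted p of 0.0687 or 0.0892) or of RG3039 (0.120 or 0.127) was left out. With decitabine alone the change of TAP1 was 0.42 ± 0.18 (interval 0.01 to 0.83, adjusted p = 0.267). Neighbours in the order were not called against each other, at 0.25 ± 0.18 for the combination against RG3039 (adjusted p = 0.533) and -0.40 ± 0.18 for decitabine against RG3039 (adjusted p = 0.284). The combination against decitabine gave 0.65 ± 0.18 (adjusted p = 0.0642).

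TAP2 (ENSG00000204267.16, chromosome 6, 32821833 to 32838780) stood at 639 and 673 with the combination, 1748 and 1219 with decitabine, 1884 and 1129 with RG3039, against 2510 and 1079 in DMSO. The combination libraries were close together and below all 6 others, which overlapped. TAP2 fell with the combination to 0.399 of the DMSO level (-1.33 ± 0.38, adjusted p = 0.0305). The size of this change rests on DMSO replicate 1, without which it was -0.72 (adjusted p = 0.166). The call also ended without replicate 1 or 2 of the combination (adjusted p of 0.131 or 0.104) and under 5 of the other 10 alternatives. Against decitabine the combination gave -1.15 ± 0.38 (adjusted p = 0.0988) and against RG3039 -1.15 ± 0.38 (adjusted p = 0.146), neither called. The single drugs gave -0.17 ± 0.38 each against DMSO, with intervals from -1.02 to 0.67. In the gene annotation used here, the TAP2 model overlaps AL669918.1, a protein-coding model on the same strand. Reads may have been split between these models, so the separate level of TAP2 is uncertain. The part of this overlap in the fall of TAP2 was not tested.

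TAP1 lies head to head with the immunoproteasome gene PSMB9 and overlaps it in GENCODE 29, on opposite strands. The TAP1 model also overlaps PSMB8-AS1, a long non-coding RNA gene on the strand opposite to TAP1, whose values were not looked at. PSMB9 stood at 737 and 923 with the combination, 727 and 830.3 with decitabine, 444 and 532 with RG3039, against 744 and 593 in DMSO. RG3039 was thus lowest for PSMB9 where it was above DMSO for TAP1, and PSMB9 was not called against DMSO with RG3039 (-0.45 ± 0.21, adjusted p = 0.235) or with the combination (0.31 ± 0.21, adjusted p = 0.324). Whether the counting used strand was not given in the sources used here, so reads in these overlaps cannot be assigned with certainty.

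TAPBP encodes tapasin (ENSG00000231925.12, chromosome 6, 33299694 to 33314387) and was called in no comparison. It stood at 2642 and 2869 with the combination, 2319.8 and 2784 with decitabine, 2441 and 2664 with RG3039, against 2406 and 2393 in DMSO. The single drugs overlapped each other, and the combination change against DMSO was 0.20 ± 0.15 (interval -0.13 to 0.53, adjusted p = 0.378). Its changes with decitabine and RG3039 were 0.08 ± 0.15 and 0.09 ± 0.15, neither called.

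NLRC5, the class I transactivator gene (ENSG00000140853.15, chromosome 16, 56989485 to 57083531), stood at 1331 and 1766 with the combination, 868 and 1123 with decitabine, 1016 and 1199.8 with RG3039, against 793 and 1022 in DMSO. Both combination libraries were above all others, and the other 3 groups overlapped. NLRC5 rose 1.70-fold with the combination (0.77 ± 0.22, adjusted p = 0.0309). It ended when DMSO replicate 1 (adjusted p = 0.147) or combination replicate 2 (adjusted p = 0.194) was left out, and missed the threshold without the variance trend (0.0980) or with only the groups compared (0.0520). The single drugs gave 0.13 ± 0.22 for decitabine (adjusted p = 0.794) and 0.29 ± 0.22 for RG3039 (adjusted p = 0.475). The combination was not called against decitabine (0.63 ± 0.22, adjusted p = 0.115) or RG3039 (0.47 ± 0.22, adjusted p = 0.299). Replicate 2 was above replicate 1 in all 4 groups for NLRC5 and also for HLA-E, which held for 1964 of the 17534 tested genes.

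**Figure D3:**
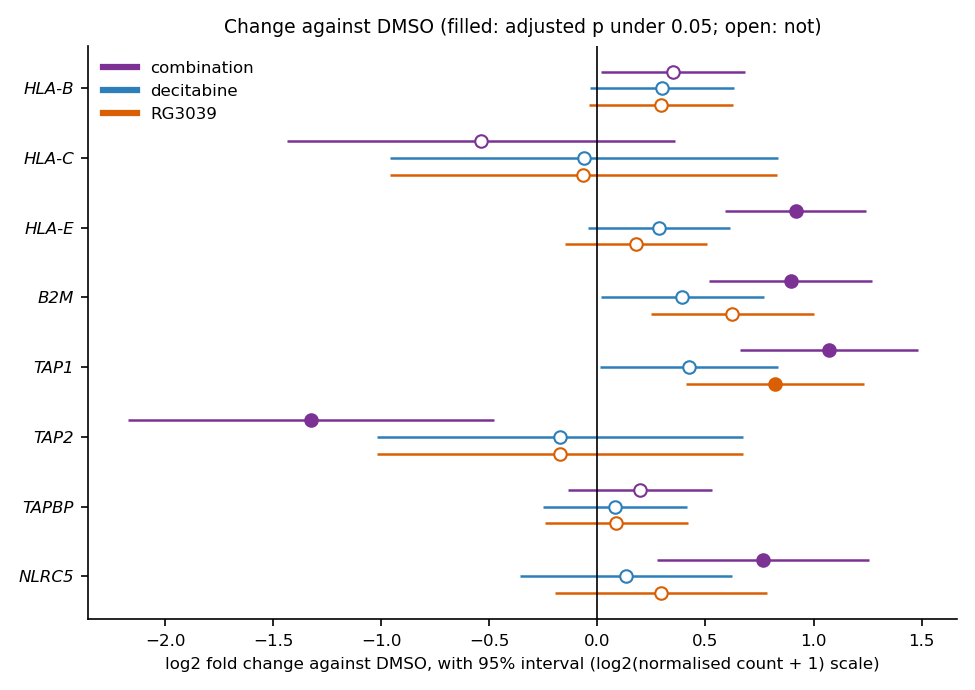
Log2 fold changes of the 8 tested members against DMSO (points) with 95% intervals (lines), for the combination, decitabine and RG3039; filled points have an adjusted p under 0.05. With the combination HLA-E, B2M, TAP1 and NLRC5 lie to the right of 0 and TAP2 to the left, and TAP1 is the filled point of RG3039.

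The direction of the members was also read from whether the libraries of 2 groups overlapped. Against DMSO, 6 of 8 members were higher in both combination libraries and 2, TAP2 and HLA-C, were lower, where 32.2% and 30.6% of all tested genes were higher and lower without overlap. With RG3039 5 of 8 were higher and 0 lower (25.8% and 26.1% of all genes), and with decitabine 4 of 8 were higher and 0 lower (23.7% and 23.1%). B2M, TAP1, HLA-E and HLA-B were in the higher set of all 3 comparisons, which share the DMSO libraries. Against decitabine, 4 of 8 members were higher in both combination libraries and 1, TAP2, lower (25.7% and 27.3% of all genes). Against RG3039, 3 of 8 were higher and again TAP2 lower (26.2% and 25% of all genes). Between the single drugs, 0 of 8 were higher and 2 lower with decitabine than with RG3039, B2M and TAP1 (24.5% and 23.8% of all genes). Of the whole signal, the 9 genes took up 0.357% and 0.456% with the combination, 0.335% and 0.279% with decitabine, 0.346% and 0.318% with RG3039, against 0.230% and 0.217% in DMSO. Most of this share is B2M.

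Adding RG3039 to decitabine called 1 of 8 members, HLA-E, which rose (7.33% of all genes were called, 3.94% higher and 3.39% lower). The median change was 0.31, against -0.02 over all genes. Adding decitabine to RG3039 also called 1 of 8, again HLA-E (2.28% of all genes were called, 1.49% higher and 0.787% lower), with a median of 0.18, against 0.02. Decitabine against RG3039 called 0 of 8 (4.6% of all genes were called, 2.67% higher and 1.92% lower), and 0 passed at an unadjusted p under 0.05, among 3291 of all genes.

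Departure of the joint response from additivity was tested by the interaction, the gain from adding RG3039 to decitabine less the gain from RG3039 over DMSO. None of the 8 members was called (0% of all tested genes were called by limma, in either direction), and 0 of 8 had an unadjusted p under 0.05, among 1014 of all genes. The interaction was 0.45 ± 0.21 for HLA-E (interval -0.01 to 0.92, adjusted p = 0.880) and 0.34 ± 0.31 for NLRC5 (interval -0.35 to 1.03). For B2M it was -0.12 ± 0.24 (interval -0.66 to 0.41) and for TAP1 -0.17 ± 0.26 (interval -0.76 to 0.41). HLA-B gave -0.24 ± 0.21, HLA-C -0.41 ± 0.57 and TAPBP 0.03 ± 0.21. The interval of TAP2 was the widest but for HLA-C, at -0.98 ± 0.53 (interval -2.18 to 0.22). These intervals are wide, and a missed threshold does not show that the responses add up.

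**Figure D4:**
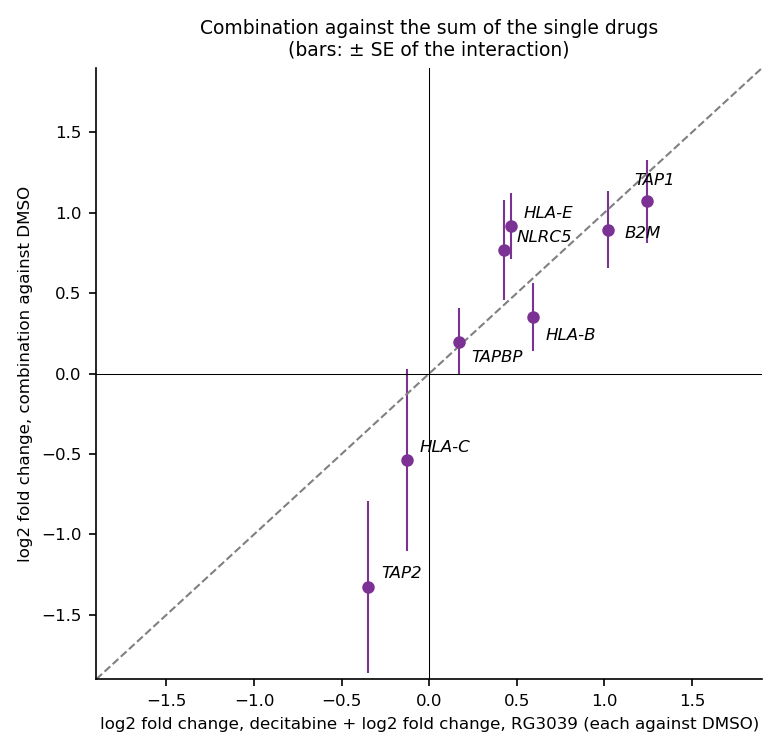
Log2 fold change with the combination (vertical) against the sum of the log2 fold changes with decitabine and RG3039 (horizontal), each against DMSO, for the 8 tested members; bars are ± SE of the interaction and the dashed line marks equality. HLA-E and NLRC5 lie above the line and TAPBP close to it. TAP2, HLA-C, HLA-B, TAP1 and B2M lie below it, and no interaction was called.

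Genes that supply and load the peptides were read against the same shares of all tested genes, of which the combination called 11.4% higher and 12.7% lower. Of 7 immunoproteasome and proteasome activator genes, all tested, 0 rose and 4 fell with the combination (median -0.55, against 0.04 over all genes). The activator subunit gene PSME2 stood at 1322 and 1478 with the combination, 1884 and 2017 with decitabine, 1451 and 1782 with RG3039, against 2418 and 2952 in DMSO. It fell with the combination (-0.93 ± 0.17, adjusted p = 0.00407), which held without each of the 8 libraries. The immunoproteasome subunit gene PSMB10 stood at 8.61 and 2.09 with the combination, 41.0 and 6.61 with decitabine, 5.62 and 7.31 with RG3039, against 94.0 and 59.5 in DMSO. PSMB10 was thus low with RG3039 alone too, where it was not called. With the combination PSME1 (-0.66 ± 0.17), PSME3 (-0.55 ± 0.14) and PSMB10 (-3.80 ± 0.95) were also called lower. Each of these 3 calls was lost without some library, at adjusted p up to 0.146, 0.105 and 0.103. For PSME1 and PSME3 these were DMSO replicate 2, combination replicate 1 and combination replicate 2, and for PSMB10 DMSO replicate 1, DMSO replicate 2 and combination replicate 2. With RG3039 PSME1 (-0.84 ± 0.17, adjusted p = 0.0163) and PSME2 (-0.73 ± 0.17, adjusted p = 0.0302) fell, calls that were lost without DMSO replicate 2 or without either RG3039 library (for PSME2 also without either combination library), at adjusted p up to 0.101 and 0.181. With decitabine 0 of 7 was called.

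Cytosolic peptidases trim or destroy peptides before transport. Of 6 tested, 0 rose and 4 fell with the combination (median -0.84), 0 rose and 2 fell with RG3039 (median -0.40), and 0 was called with decitabine. The changes of NPEPPS and LAP3 with the combination were 0.04 ± 0.14 and 0.01 ± 0.24, neither called. The thimet oligopeptidase gene THOP1 stood at 1109 and 933 with the combination, 1736 and 2088 with decitabine, 1183 and 1270.5 with RG3039, against 2394 and 2010.2 in DMSO. THOP1 fell with the combination (-1.11 ± 0.17, adjusted p = 0.00196), as did NRDC (-0.90 ± 0.15), TPP2 (-0.86 ± 0.15) and BLMH (-0.82 ± 0.13), all at adjusted p of 0.00366 or less and kept without each of the 8 libraries. With the combination THOP1 (-0.90 ± 0.17, adjusted p = 0.0159) and BLMH (-0.53 ± 0.13, adjusted p = 0.0430) were also lower than with decitabine, calls that ended at an adjusted p of up to 0.119 and 0.207 when decitabine replicate 2 or either combination library was left out (for BLMH also decitabine replicate 1 or either RG3039 library). With RG3039 alone THOP1 and NRDC fell (both -0.84, adjusted p = 0.0191 and 0.0112), calls lost at adjusted p up to 0.114 and 0.0801 without either RG3039 library, or without DMSO replicate 1 (THOP1) or DMSO replicate 2 (NRDC). Among the constitutive proteasome subunits 1 of 3 fell with the combination, PSMB5 (-0.89 ± 0.19, adjusted p = 0.00786), which was lost at adjusted p = 0.0549 without combination replicate 1.

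Of 11 peptide loading and trimming genes, 0 rose and 1 fell with the combination (median -0.23). This was CALR, which encodes the chaperone calreticulin of the loading complex. It stood at 20025 and 19037 with the combination, 58227 and 58473 with decitabine, 31363 and 26159 with RG3039, against 44067 and 32742 in DMSO. Decitabine was highest and the combination lowest, without overlap. With the combination CALR fell relative to DMSO (-0.96 ± 0.16, adjusted p = 0.00286) and to decitabine (-1.58 ± 0.16, adjusted p = 0.00128), both kept without each of the 8 libraries. Against RG3039 it was higher with decitabine (1.03 ± 0.16, adjusted p = 0.00846), which ended at an adjusted p of up to 0.0771 without either decitabine library or RG3039 replicate 2. ERAP1, an aminopeptidase that trims peptides inside the endoplasmic reticulum, was lower with the combination than with decitabine (-1.26 ± 0.28, adjusted p = 0.0281) and higher with decitabine than with RG3039 (1.37 ± 0.28, adjusted p = 0.0261). Both calls of ERAP1 were lost without either library of decitabine and without others, at adjusted p up to 0.165 (also either combination library) and 0.159 (also either RG3039 library or combination replicate 2).

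**Figure D5:**
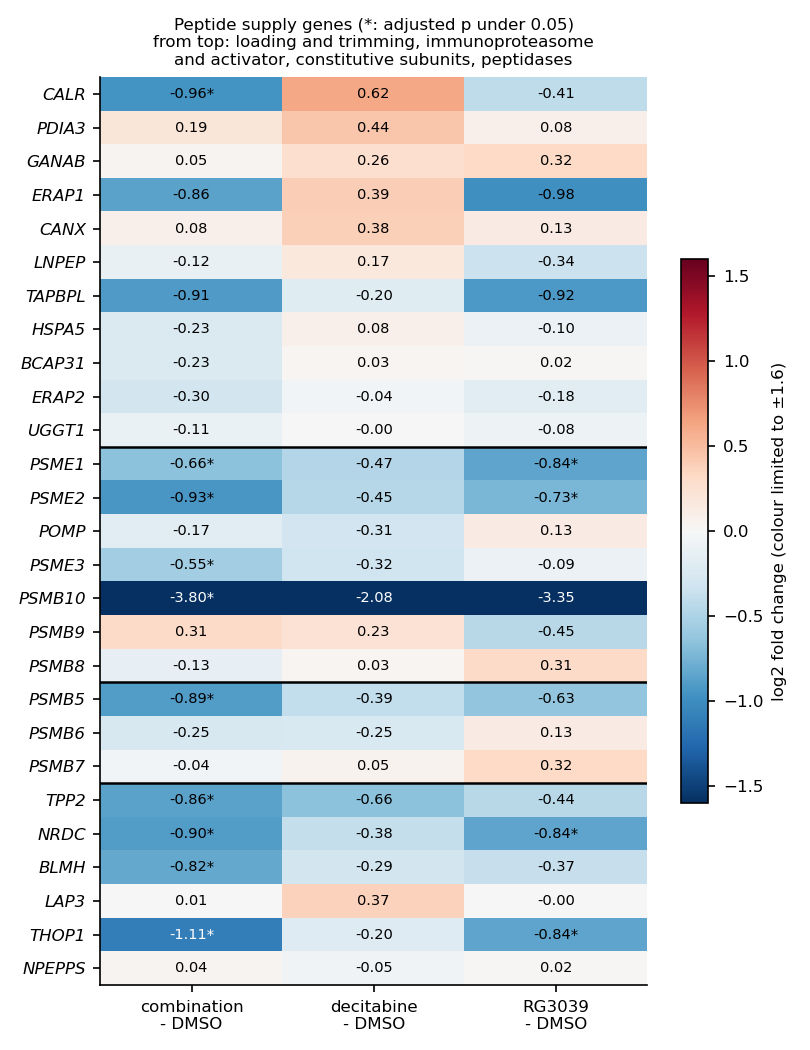
Log2 fold changes of the tested peptide supply genes (rows) with the combination, decitabine and RG3039, each against DMSO (columns); red is higher and blue lower than in DMSO, and an asterisk marks an adjusted p under 0.05. No gene carries an asterisk with a positive value, and PSME2, THOP1 and CALR are at -0.93, -1.11 and -0.96 with the combination.

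Among 16 tested regulators of class I transcription, 1 rose and 1 fell with the combination, no larger a share than the 24.1% called over all tested genes. NFYB, a subunit of the CCAAT-binding factor, rose (0.83 ± 0.21, adjusted p = 0.0199), which ended at an adjusted p of up to 0.134 without DMSO replicate 1 or combination replicate 2. EED, a subunit of the Polycomb complex that silences class I genes in some tumours, fell (-1.12 ± 0.25, adjusted p = 0.0108), which ended at an adjusted p of up to 0.0922 without DMSO replicate 1 or combination replicate 1. EZH2 and SUZ12, other subunits of that complex, were not called. With the combination EZH2 stood at 3469 and 3181, against 3304 and 3497 in DMSO, and SUZ12 at 9649 and 10069, against 8136 and 9597. In this list 0 of 16 was called with either single drug against DMSO, and RFXAP was lower with decitabine than with RG3039 (-0.92 ± 0.20, adjusted p = 0.0327), lost at adjusted p up to 0.189 without any 1 of the 6 libraries of decitabine, RG3039 and the combination. Of 9 interferon receptor and signalling genes, 0 was called in each comparison with DMSO. IFNAR2 was higher with decitabine than with RG3039 (0.68 ± 0.16, adjusted p = 0.0483), a call lost without any 1 of 7 libraries, all but DMSO replicate 1, at adjusted p up to 0.226.

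Of 24 interferon-stimulated genes 17 were tested, and the combination called 5 higher and 1 lower (median 0.45), where 11.4% of all tested genes were called higher and 12.7% lower. GBP2, an interferon-inducible GTPase, led them at 2288 and 2684 with the combination, 228 and 354 with decitabine, 473 and 618 with RG3039, against 49.0 and 52.3 in DMSO (5.59 ± 0.26, adjusted p = 4.61e-06). IFI6 (2.19 ± 0.35) and ISG15 (1.18 ± 0.23) rose and XAF1 fell (-1.45 ± 0.28), at adjusted p of 0.00553 or less, and all 4 calls were kept without each of the 8 libraries. The other 2 genes called higher did not keep their calls. MX2 (2.55 ± 0.67, adjusted p = 0.0219) ended at an adjusted p of up to 0.127 without DMSO replicate 1 or either combination library. GBP5, at 24.3 and 67.0 with the combination and listed at 0 in both DMSO libraries (adjusted p = 0.00975), ended at 0.0928 without combination replicate 2. GBP5 stood at 10.2 and 7.84 with decitabine and at 0 and 2.05 with RG3039. It met the minimum mean of 10 only through the combination libraries. Its call was therefore set in part by that filter and is no separate support for a rise. GBP1 also met the filter only through the combination, and was not called against DMSO. IFIT1, IFIT2, CXCL10 and 4 others were too low to be tested. In each single-drug comparison with DMSO the gene called was GBP2 (1 of 17), and it was also higher with the combination than with decitabine (3.12 ± 0.26) or RG3039 (2.19 ± 0.26). The last of these ended at an adjusted p of up to 0.0827 when RG3039 replicate 1 or either combination library was left out.

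Of 13 other class I-like molecules 7 were tested, and the combination called 1 higher, where 11.4% of all tested genes were called higher. This was FCGRT, which encodes the heavy chain of the neonatal Fc receptor, a partner of β2-microglobulin. FCGRT stood at 719.7 and 953 with the combination, 393 and 661 with decitabine, 378 and 454 with RG3039, against 254 and 304 in DMSO, and rose with the combination (1.57 ± 0.28, adjusted p = 0.00351), which held without each of the 8 libraries. Of 9 genes of class I surface turnover 7 were tested. TMEM127 rose with the combination (0.56 ± 0.15, adjusted p = 0.0210), lost at adjusted p up to 0.144 without any 1 of the DMSO and combination libraries. IRGQ rose with RG3039 (0.78 ± 0.19, adjusted p = 0.0369) and was lower with decitabine than with RG3039 (-0.87 ± 0.19, adjusted p = 0.0327), each lost without any 1 of 6 libraries, at adjusted p up to 0.161 and 0.153. For the first call these were the libraries of DMSO, RG3039 and the combination, and for the second those of decitabine, RG3039 and the combination.

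Markers of mature monocytes and granulocytes moved in the same comparison. Of 12 such markers, all tested, 10 were called higher and 1 lower with the combination (11.4% and 12.7% of all tested genes). The marker called lower was FCGR1A, at 503 and 515 with the combination, against 970 and 1301 in DMSO. With RG3039 6 of these markers were called higher and 1 lower (4.53% and 3.59% of all genes). With decitabine 1 of these markers was called higher and 0 lower (1.74% and 0.405% of all genes). Their summed level was 141909 and 160874 with the combination, 82832 and 85190.2 with decitabine, 119545 and 113625 with RG3039, against 63931 and 74941 in DMSO, and none was at 0 in a whole group. Almost all of this sum is LYZ, S100A8 and S100A9, so it says little about the other markers. Markers of T, B and NK cells were low, with summed levels of at most 233, 167 and 574 in any library, and MS4A1 was listed at 0 throughout. Of the T cell markers 2 of 4 were tested, of the B cell markers 2 of 4 and of the NK cell markers 4 of 4. CD3D, CD3E, CD79A and GNLY were called higher and NKG7 lower with the combination. CD3E, at 1.51 to 18.7 outside the combination, met the minimum mean of 10 only through the combination libraries. Its call was therefore set in part by that filter. The 2 plasma cell and 3 epithelial markers summed to at most 9.41 and 43.2, with JCHAIN and KRT19 at 0 throughout. The stromal and endothelial list summed to 3136 and 3520 with the combination, 614 and 852 with decitabine, 1677 and 1886 with RG3039, against 675 and 628 in DMSO, almost all of it PECAM1, which myeloid cells also express, while CDH5 was at 0 throughout. The share of mitochondrially encoded transcripts lay between 10.4% and 12.6% in all libraries and was lowest in DMSO replicate 2. The part of any of these in the class I changes was not tested.

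How the members varied together is given as a description over 8 libraries that share groups and scaling. B2M and TAP1 were most alike (r = 0.968). TAP2 ran against HLA-E (r = -0.888) and NLRC5 (r = -0.893), and NLRC5 ran with HLA-E (r = 0.895) and TAPBP (r = 0.852). HLA-B ran with B2M (r = 0.865) and HLA-C ran against TAPBP (r = -0.838). Between HLA-B and HLA-C, whose separate levels are uncertain, r was -0.033, which over 8 libraries does not show that they are unrelated. Outside the pathway, the genes most like the mean of the tested heavy chain genes (HLA-B, HLA-C and HLA-E) were GABRE (r = 0.957), ENC1 (r = 0.948), KIF1B (r = 0.946), STXBP5 (r = 0.943) and AL358472.4 (r = 0.942). Those most like NLRC5 were TP53BP2 (r = 0.985), CREB3 (r = 0.978), RIOK3 (r = 0.977), KLHL36 (r = 0.974) and CASK (r = 0.971). These are the 5 highest of each search among tested genes with a mean of at least 20.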

How the data were processed

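Each gene's deposited signal is a normalised count, labelled by the authors as normalised with DESeq2. The library totals still differ, from 27878621 to 32309929. The processing notes of the submitters name hg38 and, in no stated order, limma, DESeq2, featureCounts, STAR and Salmon 1.2.1. Which of them made the counts before normalisation was not given in the sources used here. Per the labels' protocols, libraries were made with the QuantSeq 3′ kit and sequenced single-end (50 bases). The commonest value among genes with 1 transcript was taken as 1 read (0.702 to 1.51). Of low values, 74.4% to 80.8% were whole multiples of it within 0.02, so whole reads could be had for many genes but not for nearly all; no count test was run, and depths are estimates.

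Genes with a mean of at least 10 were tested on log2(value + 1) with limma 3.58.1 in R 4.3.3 (a mean per group, eBayes with trend, 4 residual and 5.51 prior degrees of freedom), two-sided, over 7 contrasts. The procedure was tested on simulated data. The members and lists were chosen with earlier results of these data known. All 9 members are named. Of each list, up to 4 called genes per comparison with the smallest p are named. Coordinates come from GENCODE 29 and promoters from RefSeq. Some class I genes are not analysed here. Alternatives were TMM scaling (unweighted), quantile normalisation, other pseudocounts and filters, other variance models, only the groups compared, the replicate block and leaving out each library. Data were prepared with Python 3.11.15 and pandas 2.3.3.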

Additional observations from a re-analysis of the deposited data

How the results depend on the processing

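The medians of the members moved by less than 1 SD between replicates (0.261) under all alternatives run. The number of members called with RG3039 against DMSO, 1 in the report, was 2 with quantile normalisation, a minimum mean of 50, robust eBayes or the replicate block, and 0 without the variance trend or with only the groups compared. For the combination against DMSO, 5 in the report, it was 3 without the variance trend or with only the groups compared, and 4 without a filter or with robust eBayes. For the combination against decitabine, 1 in the report, it was 0 without a filter or without the trend, 2 with quantile normalisation, a minimum mean of 50 or only the groups compared, and 3 with the replicate block. For the combination against RG3039, 1 in the report, it was 0 without a filter or without the trend and 2 with the replicate block. Leaving out each library gave 0 to 1 for RG3039 against DMSO, 2 to 5 for the combination against DMSO, 0 to 2 for the combination against decitabine and 0 to 1 for the combination against RG3039. The cause was not tested.

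The replicate numbers mark no shared batch in the labels. Deviations of same-numbered libraries correlated across genes from -0.077 to 0.161, above 0.1 in some pairs of groups and not in others. The samples were not paired in the main model, and these correlations cannot exclude a spread shared by same-numbered libraries. Over all tested genes the replicate block raised the calls in each pairwise comparison, from 4221 to 4619 for the combination against DMSO. The replicate block changed no call of a member other than B2M with RG3039, TAP2 and NLRC5 against decitabine and TAP2 against RG3039, which it added.

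Changes of sign were all in values that were not called. In decitabine against RG3039, TMM scaling gave -0.013 for HLA-B, -0.015 for HLA-C and -0.015 for TAP2, and quantile normalisation gave 0.078 for TAPBP. In decitabine against DMSO, quantile normalisation gave 0.060 for HLA-C. Quantile normalisation moved the mean of all tested genes in DMSO replicate 2 by 0.11 on the log2 scale and in the other libraries by 0.09 or less in size. Leaving out each library gave, for decitabine against DMSO, -0.57 to 0.44 for HLA-C, -0.78 to 0.44 for TAP2, -0.049 to 0.21 for TAPBP and -0.052 to 0.32 for NLRC5. For RG3039 against DMSO it gave -0.64 to 0.51 for HLA-C and -0.78 to 0.43 for TAP2. For the combination against decitabine it gave -0.10 to 0.21 for HLA-B, -0.98 to 0.031 for HLA-C and -0.016 to 0.25 for TAPBP. For the combination against RG3039 it gave -0.098 to 0.21 for HLA-B and -1.05 to 0.10 for HLA-C. For decitabine against RG3039 it gave -0.10 to 0.11 for HLA-B, -0.58 to 0.58 for HLA-C, -0.013 to 0.23 for HLA-E, -0.37 to 0.37 for TAP2, -0.14 to 0.13 for TAPBP and -0.35 to 0.025 for NLRC5. For the interaction it gave -0.99 to 0.17 for HLA-C, -0.36 to 0.11 for B2M and -0.10 to 0.16 for TAPBP. Where 1 library of a group remained, its spread was taken from the other groups. With 2 libraries a group an exact permutation test cannot go below p = 0.333, and depth limits HLA-F and the pseudogenes.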
